A study of Homo sapiens with 12 samples.

Results

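Ribosomal protein pseudogenes are copies of ribosomal protein genes, and each carries the symbol of its parent gene followed by P and a number. Every transcript cluster of the array (the set of probes that stands for 1 transcribed locus) with a single symbol of that form was taken. The rule found 893 clusters, and 1 of them was set apart because RPS19BP1 is a protein-coding gene whose symbol only looks like such a name. The 892 clusters that stayed carry 877 symbols and are named after 67 parent genes, out of 36176 clusters with a single gene symbol. They comprise 632 clusters named after proteins of the large ribosomal subunit (RPL) and 260 named after proteins of the small subunit (RPS), and RefSeq lists 866 as pseudogenes and 26 as transcribed pseudogenes. For 655 clusters the parent gene, 1 of 48, had a cluster of its own, and for 237 it had none.

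The RNA came from MiaPaCa-2, a human pancreatic cancer cell line. The cells were given DMSO (the solvent control), 10 µM olaparib or 1 µM gemcitabine. Olaparib is an inhibitor of the DNA repair enzyme PARP, and gemcitabine is a nucleoside analog that blocks DNA synthesis. Cells given a drug were harvested after 16 h, and no time is stated for DMSO. Cytoplasmic lysate was precipitated either with an antibody to HuR, an RNA-binding protein that holds on to U-rich and AU-rich stretches, or with IgG as the control for RNA that sticks without the antibody. The 12 Clariom D arrays form 6 groups of 2, 1 HuR-IP and 1 IgG-IP group in each of the 3 treatments. All groups are of 1 cell line, and the labels call the 2 arrays of each group biological replicates. Nothing in the labels ties an IgG-IP array to the lysate of a HuR-IP array, so the p-values measure the spread between these arrays.

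Ribosomal protein genes are transcribed at a high rate in growing cells, and their short mRNAs are among the most abundant of the cytoplasm. Copies of such mRNAs that were reverse transcribed and inserted elsewhere in the genome make up most of the family. These copies have no introns and keep much of the sequence of the mRNA, so that probes for a pseudogene can also take up the RNA of the parent gene or of another copy. On these arrays RNA of a pseudogene and RNA of its parent cannot be told apart by name.

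The mRNAs of ribosomal proteins are known for a run of C and T bases at their very start, the terminal oligopyrimidine tract, through which their translation is controlled together. The first bases of the parents of the 5 lowest members (RPS21, RPL21, RPS12 and RPL12) and of RPS10 and RPS26, whose copies are also described, are given here, because the parent mRNA is what such a copy was made from. Among copies with a signal above 8, the single copies of RPS19 and RPS13, at -3.66 and -3.47, and the median of RPS15A, at -3.32, also lay below the median of RPS10 at -3.29, and the windows of these parents are not shown. Each window holds 10 bases before and 20 bases from the start that RefSeq annotates (GRCh38.p14), 5′ to 3′ on the strand of the gene, and capitals mark a run that opens with C at the first transcribed base and goes on with more than 4 bases in all, each of them C or T.
RPL12 (chr9:127451387-127451416, minus strand): cgatttccggCCTCTCggctttcggctcgg
RPL21 (chr13:27251548-27251577, plus strand): ccgcctctttCCTTTCggccggaaccgcca
RPS10 (chr6:34426050-34426079, minus strand): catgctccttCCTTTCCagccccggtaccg
RPS12 (chr6:132814559-132814588, plus strand): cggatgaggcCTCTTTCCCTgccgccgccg
RPS21 (chr20:62387093-62387122, plus strand): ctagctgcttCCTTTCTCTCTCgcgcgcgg
RPS26 (chr12:56041908-56041937, plus strand): acataacctcgattttcttccgccatccgg

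Of these 6 windows, RPS26 alone showed no such run at the annotated start. Of 35116 RefSeq promoters, 4.07% had the run, read on the strand of the gene at the annotated start. There were 71 promoters of 56 of the 67 parents, and 40 of them, 56.3%, had it. The letters describe the annotated starts and say nothing about what bound there.

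Averaged over the 3 treatments, 398 of the 892 pseudogene clusters gave less signal in HuR-IP than with IgG and 2 gave more (limma, adjusted p under 0.05 over all 36176 clusters). This is 44.6% of the pseudogene clusters, where 7.15% of all clusters were lower and 2.37% were higher. The median log2 difference of the pseudogenes was -0.66, beside -0.07 over all clusters and -0.08 over the 4294 other pseudogenes named after a measured parent, of which 9.11% were lower. In 408 clusters every HuR-IP array lay below both IgG-IP arrays of its treatment, in all 3 treatments, and this held for 7.88% of all clusters. The ribosomal protein genes themselves had 80 clusters, 64 of them lower and 0 higher (66 and 0 at an unadjusted p under 0.05), with a median of -2.33. Large and small subunit families gave similar values in the mean, with 271 of 632 and 127 of 260 clusters lower and medians of -0.65 and -0.75. In single treatments the shares called lower were smaller for large than for small subunit clusters. They were 4.27% and 9.23% with DMSO, 23.4% and 29.6% with olaparib, and 9.02% and 17.7% with gemcitabine. A difference is one between normalized signals and gives no amount of RNA in a precipitate or per cell. By the paper's methods the labelled cDNA was made from a set quantity of RNA. A signal is therefore relative to the other RNA of the same precipitate. The deposited arrays were close to each other but did not share 1 distribution, with array medians of 3.73 to 3.95 and array 99th percentiles of 15.1 to 16.2 over every row.

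With DMSO alone 51 pseudogene clusters were lower (5.72%, where 0.423% of all clusters were). With olaparib 225 were lower (25.2%, where 2.91% were) and with gemcitabine 103 (11.5%, where 0.907% were). No pseudogene cluster was higher in a single treatment by limma after adjustment, where 0.0193%, 0.437% and 0.0498% of all clusters were. With p under 0.05 before adjustment, 354, 416 and 363 were lower (5.65%, 11.9% and 7.34% of all clusters) and 3, 7 and 6 were higher (1.81%, 5.62% and 2.92%). Both HuR-IP arrays lay below both IgG-IP arrays in 604, 577 and 539 pseudogene clusters, where 23.8%, 29.4% and 21.4% of all clusters did so. Medians lay closer together than the counts, at -0.69 (DMSO), -0.73 (olaparib) and -0.60 (gemcitabine). Of the 143 clusters of the array that were lower in all 3 treatments, 50 were ribosomal protein pseudogenes. With 2 arrays a group these single-treatment counts moved with the setting in both directions. With the replicate number as a block there were 95, 307 and 162 lower members with DMSO, olaparib and gemcitabine, 1 higher member with olaparib, and 436 lower and 3 higher in the mean. A trended and robust variance prior left 0 calls with DMSO, 64 with olaparib, 0 with gemcitabine and 378 in the mean. Leaving out 1 array of the treatment gave 0 to 6 calls with DMSO, 46 to 91 with olaparib and 14 to 79 with gemcitabine.

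RPS21P4, a copy of the small subunit gene RPS21, had the lowest difference of all members. Its signal on the IgG-IP arrays was 14.74 and 14.97 with DMSO, 14.98 and 15.42 with olaparib, and 14.78 and 15.62 with gemcitabine. On the HuR-IP arrays it was 10.94 and 10.80, 10.39 and 10.83, and 10.36 and 10.63. The groups did not overlap in any treatment, and the mean difference was -4.43 (SE 0.19, adjusted p = 2.76e-05).

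RPL21P119, a copy of the large subunit gene RPL21, read 17.40 and 16.68 with DMSO, 17.39 and 16.59 with olaparib, and 17.25 and 16.77 with gemcitabine on IgG-IP arrays. Its HuR-IP arrays read 13.74 and 12.84, 12.62 and 12.16, and 12.92 and 12.12. All HuR-IP arrays were below all IgG-IP arrays, and the mean difference was -4.28 (SE 0.27, adjusted p = 8.54e-05). RPL21P28, another copy of the same gene, lies within the span of DTL, which encodes a ubiquitin ligase adaptor. It read 11.06 and 10.20, 10.80 and 10.24, and 10.99 and 10.56 on IgG-IP arrays, and 7.49 and 7.0, 5.87 and 6.45, and 6.66 and 6.31 on HuR-IP arrays. The difference was -4.01 (SE 0.23, adjusted p = 5.06e-05), and DTL itself differed by -1.21 without passing the test (adjusted p = 0.314).

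RPS12P23, a copy of the small subunit gene RPS12, had a mean difference of -4.13 (SE 0.30, adjusted p = 0.000145), with IgG-IP arrays between 10.40 and 11.17 and HuR-IP arrays between 5.87 and 7.60. RPL12P12, a copy of the gene for a stalk-base protein of the large subunit, had -3.88 (SE 0.22, adjusted p = 5.06e-05), with IgG-IP arrays between 12.66 and 13.44 and HuR-IP arrays between 8.44 and 10.31. These 5 clusters were the lowest in the mean, and none of them had a HuR-IP array at the level of an IgG-IP array.

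**Figure D1:**
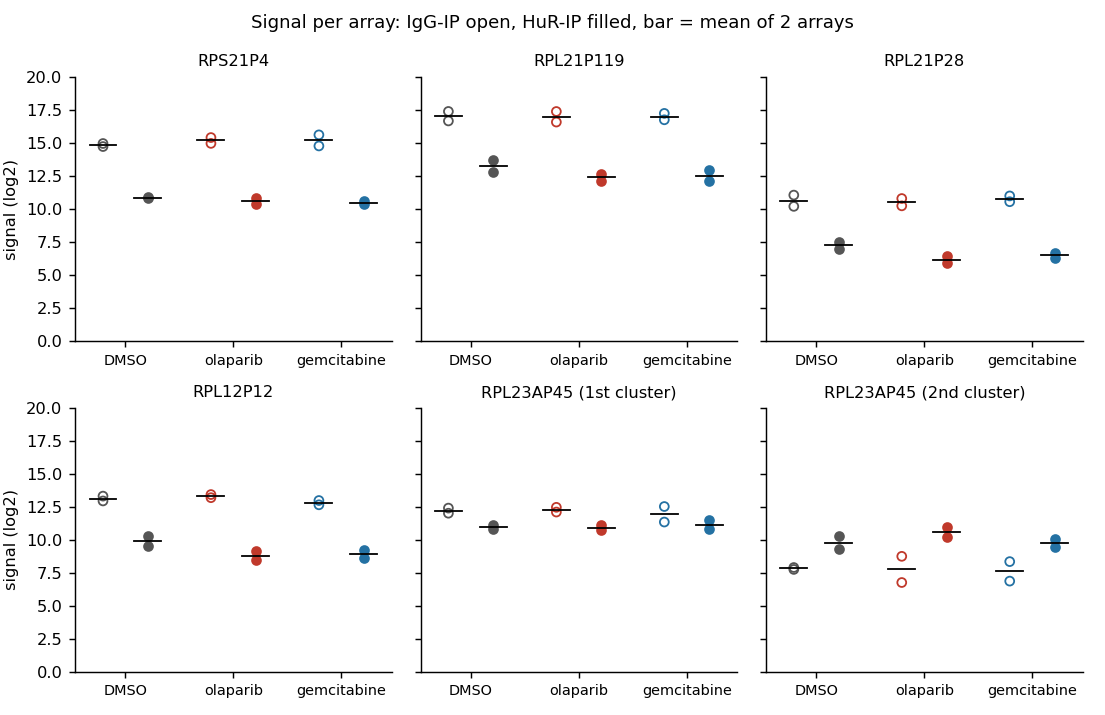
Log2 signal of 6 pseudogene clusters on each of the 12 arrays (vertical axis) by treatment, with IgG-IP arrays open, HuR-IP arrays filled and a bar at the mean of 2 arrays. The 4 clusters RPS21P4, RPL21P119, RPL21P28 and RPL12P12 read lower on every HuR-IP array, while the second RPL23AP45 cluster read higher on every HuR-IP array.

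The 5 brightest clusters were RPL3P4, RPS10P17, RPS23P8, RPS2P46 and one of the clusters of RPL7P47, with mean signals from 17.74 to 18.80. The brightest feature of each array read 19.48 to 19.88, so these clusters sat near the top of the scale, where a probe can saturate. Their mean differences ranged from -1.21 in RPL3P4 (SE 0.19, adjusted p = 0.00548) to -2.88 in RPS2P46 (SE 0.29, adjusted p = 0.000791). RPL3P4 read 19.56 and 19.30 in IgG-IP with DMSO and 18.32 and 19.01 in HuR-IP with DMSO. After cyclic loess scaling its difference was -0.14 and no longer passed the test.

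The share of clusters called lower rose with the signal, apart from a step from 91% to 89.5% between the classes from 6 to 8 and from 8 to 10. Mean signals are over all 12 arrays, HuR-IP and IgG-IP alike, and were used to describe the members, not to choose them. Of 285 pseudogene clusters with a mean signal of 4 or below, near that of the background control probes (array medians 2.88 to 3.01), 5.96% were lower, with a median difference of -0.19. The 122 clusters from 6 to 8 had a median of -1.58, and from 10 to 14 the share was 98.2% of 56 with a median of -2.57. All 25 clusters above 14 were lower, with a median of -2.60. Other named clusters in the same signal classes had 0.485%, 14.3%, 21.9% and 29.2% lower and medians of -0.02, -0.42, -0.57 and -0.62. The clusters of all names above 8 numbered 5711, and 23.8% of them were lower.

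**Figure D2:**
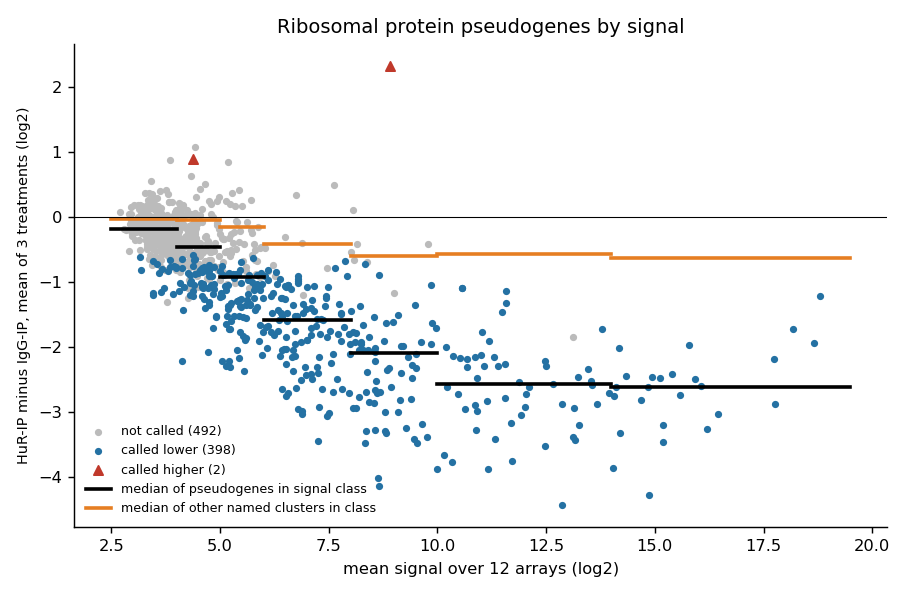
HuR-IP minus IgG-IP difference of each of the 892 pseudogene clusters (log2, mean of 3 treatments) against its mean signal over 12 arrays (log2), with calls coloured. Black bars are medians of the pseudogenes and orange bars medians of the other named clusters in the same signal class; the 398 lower clusters spread over the whole range of signal and the black bars run below the orange ones throughout.

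Above a mean signal of 8 there were 157 pseudogene clusters, with 148 lower, 1 higher and a median difference of -2.46. The 8 clusters above 8 that were not called were named here after their values were seen. They were 4 copies of RPL23A (RPL23AP4, RPL23AP7, RPL23AP53 and RPL23AP82), 2 copies of RPL7 (RPL7P21 and RPL7P22), RPL12P8 and RPL41P1. RPL41P1 came closest to a call, at -1.84 (SE 0.49, adjusted p = 0.0526), and RPL23AP53 lay nearest 0, at 0.12 (SE 0.15, adjusted p = 0.712). The other 735 clusters had a mean signal of 8 or below, and for many of them the signal left little room below it.

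All 44 families of 5 or more clusters, which hold 829 members, had a median below 0, and each had at least 1 cluster called lower. Families differed in depth. Among large subunit families, the 6 RPL12 copies above 8 had a median of -3.81 and a range of -3.88 to -0.54, and RPL12 itself, by its brightest cluster, differed by -4.15. The 6 RPL21 copies ranged from -4.28 to -2.68 around a median of -3.31, where RPL21 gave -4.42 by a cluster with an ID on chromosome 7, not 13. The 15 RPL7 copies had a median of -2.17, beside -2.22 for RPL7 by its brightest cluster, which has an ID on chromosome 1. The RPL7 cluster on the gene's own chromosome 8 gave -2.71. The 6 RPL7A copies had a median of -2.34 and RPL7A a difference of -1.36, but RPL7A read 18.98 on average and stood near the top of the scale. Its value was -0.27 after cyclic loess (limma, adjusted p = 0.561), and its call was lost in 12 of 19 alternatives. The second brightest RPL7A cluster, with a mean signal of 15.07, differed by -2.15 (limma, SE 0.24, adjusted p = 0.00122), nearer to the median of the copies.

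Among small subunit families, the 6 RPS26 copies had a median of -3.42 beside -3.58 for RPS26, a protein at the mRNA exit of the 40S subunit. The 5 RPS15A copies had -3.32 beside -3.50, and the 6 RPS4X copies -2.39 beside -2.75. The 3 RPS10 copies had -3.29 beside -4.01. Over the 34 parents with a cluster above 6 and a copy above 8, the family median and the parent's difference had a Pearson correlation of 0.775 and a Spearman correlation of 0.814. Some of these medians rest on 1 copy, as for RPS12 and RPS21. Over the 98 single pairs behind them, the correlations were lower, at 0.601 and 0.649. Over all 655 pairs, with dim copies included, they were 0.0565 and 0.00432. All these values come from the same 12 arrays and may rest on shared probes, so the correlations are a description.

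**Figure D3:**
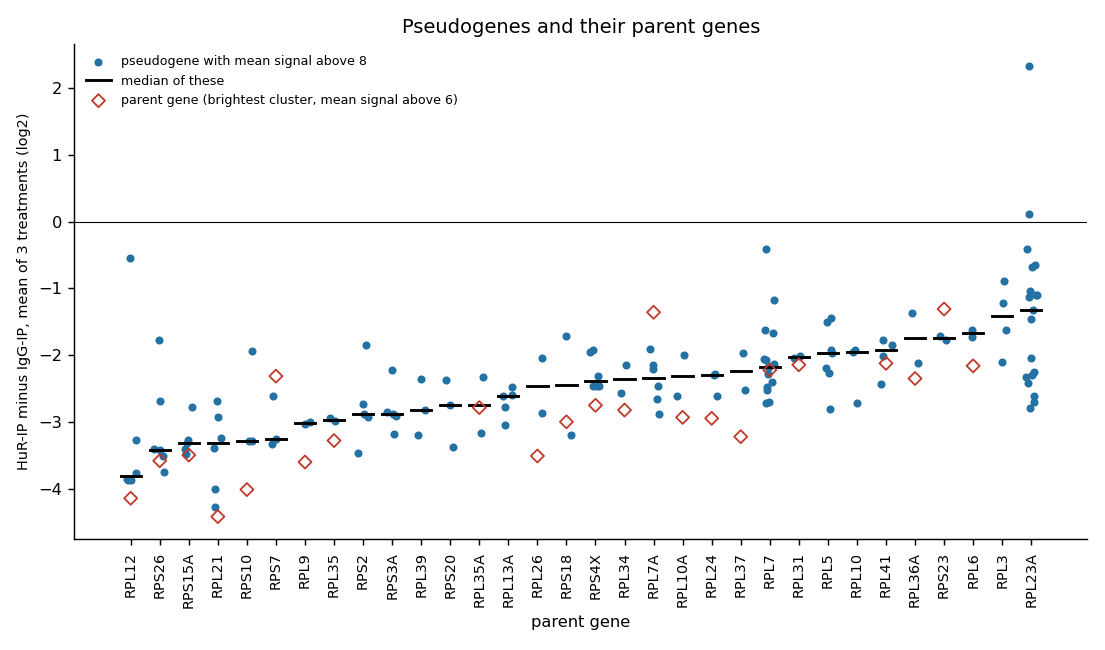
HuR-IP minus IgG-IP difference (log2, mean of 3 treatments) of pseudogene clusters with a mean signal above 8, for parents with 2 or more of them, ordered by family median (black bars); diamonds are the parent genes. RPL12 copies lie lowest by their median of -3.81 and RPL23A copies highest at -1.32, with the diamonds mostly near or below the bars.

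Each pseudogene was then compared with its parent on the same arrays, as the member's log2 signal minus that of the parent's brightest cluster, with limma over all 4949 pseudogene and parent pairs of any gene family. On average over treatments, 422 of 655 ribosomal pairs were called with the pseudogene's difference above the parent's, and 28 with it below. These are 64.4% and 4.27%, where 30.2% and 5.8% of all 4949 pairs were above and below. By treatment, 140, 360 and 273 copies were above their parent with DMSO, olaparib and gemcitabine (5.25%, 22.4% and 10.2% of all pairs), and 1, 13 and 6 were below (0.505%, 1.9% and 0.647%). The median of member minus parent was 1.70. After cyclic loess it was 0.77, with 303 members above their parent and 49 below. Most copies called above their parent were dim, and a signal near background has little room to fall. For such copies a place above a lower parent does not show that the copy's own RNA was less depleted. With members above 8 and parents above 6, 98 pairs were left, of which 16 were above, 6 below and 76 not called, with a median of 0.29. A p that misses the threshold does not show that a copy and its parent move alike. The standard errors of the difference from the parent were 0.24 to 0.33 for the 5 lowest members.

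RPL21P119 differed from RPL21 by 0.14 (SE 0.24, adjusted p = 0.687) and RPS12P23 from RPS12 by 0.28 (SE 0.29, adjusted p = 0.494). RPS21P4 lay 0.84 below RPS21, at -0.84 (SE 0.33, adjusted p = 0.0689). RPS12 read 19.01 to 19.08 and RPS21 19.48 to 19.63 on the IgG-IP arrays, near the top of the scale, so the difference of either parent can be compressed and these comparisons have that limit. The difference of RPL21P32, a dim copy, exceeded that of RPL21 by 4.99 (SE 0.33, adjusted p = 1.07e-05), the highest of all pairs of these families. Its own signal of 2.82 to 4.98 over the 12 arrays was close to background, and its difference of 0.56 did not pass the test (adjusted p = 0.204). Among brighter copies, RPL12P8 had the highest value, 3.61 above RPL12 (SE 0.30, adjusted p = 2.82e-05), and RPS10P17 was 2.08 above RPS10 (SE 0.27, adjusted p = 0.000292). RPS10P17 is among the 5 brightest clusters, near the top of the scale, so its own difference can be compressed too. That difference lost its call in 1 of 19 alternatives.

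The 28 copies below their parent came from 5 families, with 10 from RPS3A, 9 from RPL5, 4 from RPL7A, 3 from RPL4 and 2 from RPS7. The clusters of RPS3A, RPL5 and RPL4 were themselves dim, with mean signals of 3.67, 5.57 and 3.22, although the copies of these genes reached higher signals. RPS3AP47, the lowest of them, was 2.95 below RPS3A, at -2.95 (SE 0.39, adjusted p = 0.000312), and its own difference was -3.19 (SE 0.20, adjusted p = 8.05e-05). Without parents at or below a signal of 6, 422 copies were above and 6 below their parent. Those 6 were 4 RPL7A copies and the RPS7 copies RPS7P1 and RPS7P11, whose parents read 18.98 and 18.25 on average. The second brightest RPL7A cluster, at -2.15, was not used in these pairs.

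**Figure D4:**
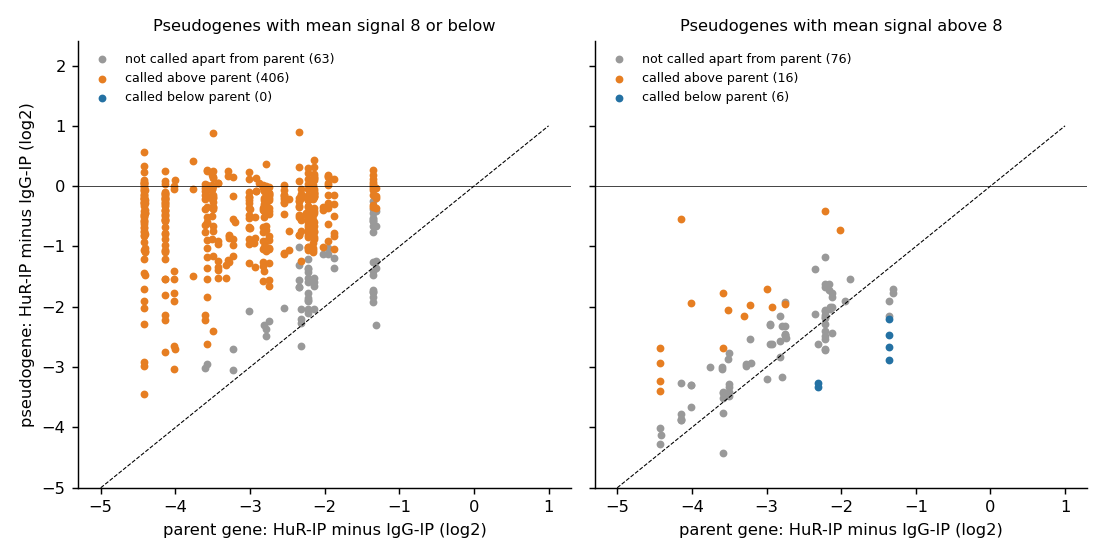
Difference of each pseudogene (vertical axis) against that of its parent (horizontal axis), both HuR-IP minus IgG-IP in the mean of 3 treatments (log2), for parents with a mean signal above 6; dashed line, equal difference. Copies above a signal of 8 (right) mostly lie near the line, with 76 of 98 not called apart from the parent, while dim copies (left) lie above it.

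The clusters that carry a parent's symbol were not all at the parent's locus. The chromosome in the cluster ID was that of the gene in RefSeq for 889 of the 892 pseudogenes, but for 7 of the 48 parents the brightest cluster was on another chromosome or unplaced. These 7 parents, among them RPL21 (gene on chromosome 13, cluster on 7), RPL7 (gene on 8, cluster on 1) and RPS26 (gene on 12, cluster on 4), have 193 of the pairs. The brightest cluster on the gene's own chromosome gave -2.71 for RPL7, -3.74 for RPS26, -3.35 for RPL9, -1.79 for RPL41 and -2.13 for RPS28. The brightest cluster on any chromosome gave -2.22, -3.58, -3.60, -2.12 and -2.92 for the same parents. Where the brightest cluster on the gene's own chromosome was used instead, 367 copies were above and 24 below their parent, among fewer pairs. RPL21 and RPL7A had no such cluster, so their 57 and 34 pairs dropped out. In the main comparison 55 and 11 of these were above the parent and 0 and 4 below.

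Both clusters called higher were looked at array by array. RPL23AP45, a copy of the large subunit gene RPL23A on chromosome 5, has 2 clusters. The higher one read 7.76 and 7.91 with DMSO, 8.75 and 6.77 with olaparib, and 8.35 and 6.88 with gemcitabine on IgG-IP arrays. Its HuR-IP arrays read 10.30 and 9.29, 10.22 and 10.99, and 10.10 and 9.50, all above every IgG-IP array. The mean difference was 2.33 (SE 0.42, adjusted p = 0.0109). The other cluster of the same symbol read 11.35 to 12.53 in IgG-IP and 10.74 to 11.48 in HuR-IP, with overlap in gemcitabine, and was lower by the test in the mean, at -1.13 (SE 0.24, adjusted p = 0.0235).

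The second higher cluster was RPL36AP15, a copy of RPL36A within the span of the mismatch repair gene MSH6. It was dim, at 3.50 to 5.56 over all arrays, with a difference of 0.90 (SE 0.21, adjusted p = 0.0328). Its call was lost in 8 of 19 alternatives, and the number of higher clusters was 1 to 4 when single arrays were left out. Among the 14 symbols with more than 1 cluster, RPL23AP45 was the only one with calls in both directions, and 4 symbols had clusters on both sides of 0.

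RPL23A had the most copies, 93 clusters, of which 31 were lower and 1 higher, and no cluster of its own among those with a single symbol. Its 19 copies above 8 covered the widest range, from -2.79 in RPL23AP37 to the 2.33 of RPL23AP45. Of these 19, 14 were lower. Among the 892 pseudogene clusters, 4 had the same values on every array as another of them. These include RPL23AP84 on chromosome 4 and RPL23AP60 on chromosome 10, which are therefore 1 measurement under 2 names.

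For the question whether the drugs changed these differences, the interaction was tested. No pseudogene differed between olaparib and DMSO or between gemcitabine and DMSO by limma after adjustment, and none of the 36176 clusters did. At an unadjusted p under 0.05, 62 pseudogene clusters had a more negative and 5 a more positive difference in olaparib than in DMSO, where 1.45% and 1.25% of all clusters did, and 12 and 11 in gemcitabine, where 0.639% and 0.92% did. The values for RPL4P5, a copy of the large subunit gene RPL4, were -0.77 in DMSO, -3.28 in olaparib and -1.06 in gemcitabine. Its change with olaparib was -2.51 (SE 0.51, unadjusted p = 0.00101, adjusted p = 1). The HuR-IP arrays numbered 2 in DMSO and gemcitabine gave shallower differences than those numbered 1. Set against the IgG-IP array of the same number, the copies above 8 had medians of -2.27 and -1.60 with DMSO, -2.92 and -3.0 with olaparib, and -2.83 and -1.85 with gemcitabine. This was not particular to the pseudogenes. Over all clusters above a signal of 6, the SD of these differences was 2.02 and 1.12 with DMSO, 2.23 and 2.08 with olaparib, and 2.25 and 1.20 with gemcitabine. The part of the HuR-IP arrays numbered 2 in the contrast of olaparib with DMSO, and in the counts per treatment, was not tested.

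Pseudogenes often lie inside other genes, whose RNA could also reach their probes. By RefSeq, 425 pseudogene clusters were within the span of another gene, with a median difference of -0.65, and 467 were not, with a median of -0.67. Spans were taken without regard to strand, so a spanning gene can lie on the strand opposite to the pseudogene. Whether RNA of a spanning gene reached the probes was not tested. For 280 clusters a single protein-coding gene spanned the pseudogene and had a cluster of its own. Across these 280 the differences of pseudogene and spanning gene had a Pearson correlation of 0.0926, which is a description over clusters of the same arrays. Of the 48 with a signal above 8, all 48 were below 0, at a median of -2.50, and the median of their spanning genes was -0.13 with 18 above 0.

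Examples chosen after the values were seen are the 3 bright pseudogenes that were lower within a gene that was higher. RPL13AP6 differed by -3.04 (SE 0.19, adjusted p = 8.05e-05) within SHOC2, a scaffold of the RAS pathway, at 1.52 (adjusted p = 0.00538). RPL7P52 differed by -2.06 (SE 0.30, adjusted p = 0.00387) within TNRC6B, a partner of Argonaute in miRNA silencing, at 2.07 (adjusted p = 0.00566). RPL3P6 differed by -1.62 (SE 0.26, adjusted p = 0.00617) within ZSWIM6 at 2.85 (adjusted p = 0.0292). In these 3 loci the pseudogene and the gene around it moved in opposite directions on the same arrays.

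**Figure D5:**
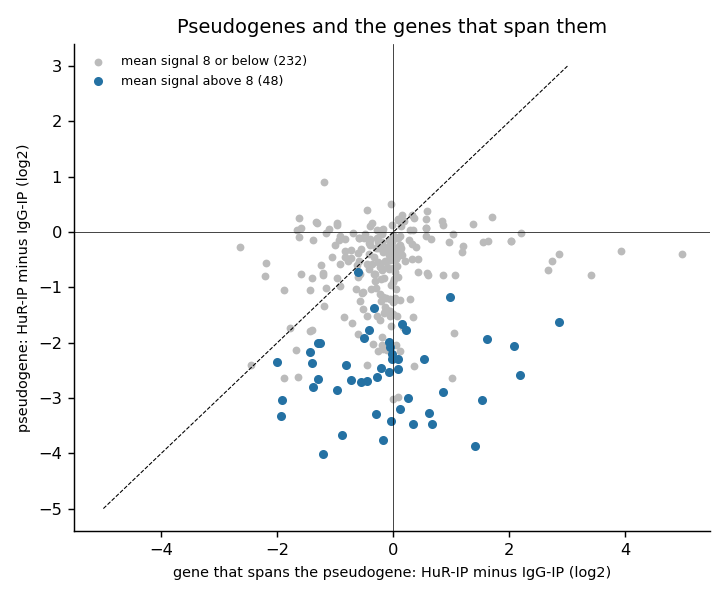
Difference of each pseudogene (vertical axis) against that of the protein-coding gene that spans it (horizontal axis), both HuR-IP minus IgG-IP in the mean of 3 treatments (log2); dashed line, equal difference. All 48 pseudogenes with a mean signal above 8 lie below 0, whereas 18 of their spanning genes lie above 0.

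The cell line labels were set against markers on the IgG-IP arrays. KRT18 (14.5 to 16.1), KRT8 (9.54 to 11.6), VIM (11.7 to 14.2) and ZEB1 (10.98 to 12.38) were well above background. The epithelial markers KRT7 (6.82 to 7.68) and KRT19 (5.16 to 7.87) were above background but read lower than KRT8 and KRT18. EPCAM (3.18 to 3.51) and CDH1 (3.09 to 3.89) were near background. Of the markers of other cell types, PRSS1 (2.57 to 3.25) and CPA1 (2.92 to 3.81) of acinar cells were near background, and PTPRC of leukocytes (3.15 to 4.45) and PECAM1 of endothelium (3.49 to 4.39) a little above it. ALB of hepatocytes (4.12 to 5.08), CD79A of B cells (4.80 to 5.78) and CD3E of T cells (5.40 to 6.03) were further above the median of the background control probes. Against the limit for dim clusters, 5.67, which was taken from the upper end of those probes, ALB lay below. CD79A and CD3E lay on both sides of that limit, as did KRT19. COL1A1 and COL1A2 of fibroblasts read 8.07 to 10.4 and 7.91 to 9.19. The part of other cells in these values was not tested.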

How the data were processed

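The authors hybridised RNA from each precipitate (WT Pico kit) and deposited log2 signals per transcript cluster, normalized by them with Affymetrix Expression Console 1.4; RMA is named in the processing notes of the submitters. The summarization settings and the genome build of the array files are not given in the sources used here. The deposited log2 signals were used with no further scaling. Depth does not apply to arrays, and their number, 2 a group, limits the precision.

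A linear model with 6 groups was fitted to all 12 arrays with limma 3.58.1 in R 4.3.3, over 36176 clusters with a single symbol, and HuR-IP was set against IgG-IP in each treatment and in the mean of the 3. Clusters were called at a Benjamini-Hochberg adjusted p under 0.05. The member minus parent values were fitted likewise over 4949 pairs. Names came from GEO's platform annotation, updated through RefSeq: the gene ID placed 25516 clusters, the current symbol 9899 and a former symbol 623, while 138 retained the annotation's name. The script was tested on simulated data. Clusters named in the text are the lowest and highest members per contrast and per parent, the brightest, those farthest from their parent, those with the largest drug differences, and RPL21P28, unless said otherwise. The members and lists were chosen with earlier results of these data known.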

Additional observations from a re-analysis of the deposited data

Results flagged for a closer look

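In 9 members named by the rule above, both HuR-IP arrays lay above both IgG-IP arrays in 1 treatment and below them in another. This held for 37 of the 892 pseudogene clusters (4.15%) and for 6.55% of all 36176 clusters. These differences between treatments were not tested beyond the interaction with DMSO, in which no cluster passed the adjusted threshold, and none of these members passed the test in a single treatment. All are log2 differences, HuR-IP minus IgG-IP, of clusters with a mean signal near background. RPL18P9 gave 0.64 in DMSO, 0.42 in olaparib and -0.30 in gemcitabine. RPL36AP48 gave -0.31 in DMSO and 1.12 in gemcitabine. RPL7P35 gave -0.16 in DMSO and 0.74 in gemcitabine. RPL21P133 gave -0.071 in DMSO, -0.41 in olaparib and 0.61 in gemcitabine. RPL26P20 gave -0.86 in DMSO, 0.43 in olaparib and 0.26 in gemcitabine. RPL21P121 gave 0.28 in DMSO, 0.20 in olaparib and -0.17 in gemcitabine. RPL15P21 gave 0.42 in DMSO and -0.74 in olaparib. RPS27P20 gave 0.26 in DMSO, 0.52 in olaparib and -0.22 in gemcitabine. RPS6P23 gave -0.45 in DMSO and 0.59 in olaparib.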

How the results depend on the processing

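The mean of the treatments had 312 to 391 lower members when single arrays were left out, and none of the 97 members and parents that the rule for named clusters gave and that were called changed sign in the alternatives run for it, up to 19. Single-treatment counts moved with the setting, and the cause was not tested. Lower members in DMSO, olaparib and gemcitabine were 28, 183 and 62 after cyclic loess, 95, 307 and 162 with the replicate number as a block, 94, 281 and 168 without HuR-IP array 2 of DMSO and of gemcitabine, 0, 64 and 0 when the prior was trended and robust, 0, 218 and 0 from only the 4 arrays compared, 14, 188 and 68 without dim clusters (those at or below a mean signal of 5.67), and 354, 416 and 363 at an unadjusted p. Leaving out 1 array gave 0 to 53, 46 to 249 and 14 to 84. In DMSO the 4 arrays of DMSO gave 0 to 6, both gemcitabine IgG-IP arrays 32 and both olaparib IgG-IP arrays 27. In gemcitabine its HuR-IP array 1 gave 25, its IgG-IP arrays 14 and 36, the DMSO IgG-IP arrays 63 and the olaparib IgG-IP arrays 61. In olaparib its own arrays gave 46, 55, 67 and 91. Higher members in the mean (2) were 5 without these 2 HuR-IP arrays, 1 with 1 cluster per gene, 1 without dim clusters, 9 at an unadjusted p and 1 to 4 without single arrays; in olaparib there was 1 after centring on brighter clusters, 1 with the block, 1 without dim clusters and 0 to 1 without single arrays, and at an unadjusted p there were 3, 7 and 6 in DMSO, olaparib and gemcitabine. No interaction was called in any fit without an array (0).

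Replicate numbers do not mark shared lysates in the labels. Deviations of same-numbered arrays correlated at 0.149 to 0.798 over 15 pairs of groups, and the block gave 436 lower and 3 higher members in the mean and kept the call of all 97. Centring on clusters above a signal of 6 moved the median of all clusters in olaparib from -0.07 to 0.12 and that of members to -0.55, with -0.55 in the mean and -0.47 in gemcitabine; cyclic loess gave -0.80 in olaparib. Over all clusters the calls were 2586 lower and 859 higher as deposited, 2139 and 1270 after cyclic loess, and 2405 and 1414 after centring, against 398 and 2, 385 and 2, and 317 and 2 among members. All 48 families with a member above 8 had a median below 0 under each of these scalings. Without dim clusters the medians were -1.58, -2.41, -1.85 and -1.95 in DMSO, olaparib, gemcitabine and the mean. Without single arrays they were -0.73 to -0.63, -0.80 to -0.73, -0.69 to -0.57 and -0.68 to -0.64.

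The median of member minus parent was 0.77 after cyclic loess, 1.99 without these 2 HuR-IP arrays, 0.67 without dim clusters, 1.46 with the mean of the parent's clusters, and 1.56 to 1.85 without single arrays. Members above and below their parent numbered 84 and 7 without dim clusters, and 383 to 434 and 21 to 33 without single arrays; 303 were above and 49 below after cyclic loess, and 43 were below with the mean of the parent's clusters. Restricting to parents above a signal of 6 (2.01, 6 below) and to clusters on the gene's own chromosome (1.78) was chosen after seeing the data. Of the called members and parents named by the rule, RPL19P12, RPL22P22, RPL35P9, RPL36AP15, RPL3P4, RPS29P22, RPS10P17, RPL7A, RPS23 and RPS27 lost the call in at least 1 alternative. Single members were not refitted on 4 arrays in the mean, which needs all treatments.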

Other observations

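RPS19BP1, the gene set apart from the pseudogenes, differed by -1.16 (SE 0.48, adjusted p = 0.189) in the mean of the treatments. A further 14 clusters carry several symbols of which 1 has the form of a ribosomal protein pseudogene, and they belong to no comparison here. Of these, 9 were below 0, with a median of -0.12 and a range of -5.42 to 2.32.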
